A study of Arabidopsis thaliana with 20 samples.

Results

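Lignin stiffens and waterproofs the walls of water-conducting xylem cells. The enzyme HCT (hydroxycinnamoyl-CoA shikimate/quinate hydroxycinnamoyl transferase) acts early on the route to the lignin building blocks, the monolignols, and class III peroxidases of the cell wall use hydrogen peroxide to oxidise those building blocks into the radicals that couple into the polymer. VND7 is a NAC transcription factor that drives cells towards the xylem vessel fate, in which secondary wall deposition, lignification and cell death follow each other. The transcripts of 4 genes of this chemistry are described here: 3 peroxidases linked to lignin formation, PRX72 (AT5G66390), PRX66 (AT5G51890) and PRX52 (AT5G05340), and HCT (AT5G48930). They were chosen by gene identity, with earlier results of these data known. They are 4 of the 13286 genes that could be matched to a probe set. Each gene was read by 1 probe set, and all lie on chromosome 5.

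The 20 arrays came from 10-day-old whole Arabidopsis thaliana seedlings in 4 groups of 5. The VND7 line carries 35S:VND7-VP16-GR, written with VND in place of VND7 in the genotype label, as a homozygous single insertion, in which VND7 is joined to the VP16 activation domain and the hormone-binding part of the glucocorticoid receptor. It was treated with dexamethasone (DEX) plus cycloheximide (CHX) or with CHX alone. The empty-vector line carries 35S:VP16-GR, likewise homozygous with a single insertion, and received the same 2 treatments. CHX, which blocks protein synthesis, was thus present in every group, for 6 h in all, and DEX, which lets a receptor fusion into the nucleus, for the last 4 h. The 35S promoter drives transgenes in most plant tissues, each line is 1 insertion, and the concentration of both compounds is 10 µM in the treatment protocol but 10 mM in other labels. The design asks which transcripts respond to the VND7 fusion without new protein synthesis, and uses the empty-vector line to set aside responses to DEX itself.

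Values below are signals divided by the median signal of the same array, called relative signals. The median signal was 159.7 to 186 on the 20 arrays. Averaged over the arrays, 86.5% of probe sets lay below that of HCT, 80.4% below PRX72, 70% below PRX66 and 34.6% below PRX52, so that PRX52 was the dimmest, at MAS5 signals of 28.9 to 133.4. The green tissue genes RCA and LHCB4.1 were bright on every array (relative signals of 91.1 to 142 and 61.7 to 109), and those of the root hair genes EXPA7 and EXPA18 were low (0.0165 to 0.395 and 0.189 to 0.530). None of the 5 vessel markers or 2 phloem markers considered had a probe set matched to 1 gene, so their levels are not analysed here. The level of VND7 itself is not analysed here either. Same-numbered arrays of different groups deviated from their group means together in 30 of 30 pairs. Of 120 pairs with different numbers, 24 also did, at a correlation over 0.1. Results with the replicate number as a block therefore stand beside some of the unblocked ones. Where no blocked result is given, the blocked standard error, interval and p-value may still differ from the unblocked ones.

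PRX72, whose loss is known to lower lignin content in Arabidopsis stems, was higher with DEX in the VND7 line and not detectably changed in the empty-vector line. Its relative signals in replicates 1 to 5 were 11.8, 7.64, 8.24, 8.61 and 8.83 with DEX plus CHX in the VND7 line, against 3.11, 3.48, 3.42, 4.75 and 5.02 with CHX alone. All 5 DEX arrays lay above all 5 CHX arrays, with a gap between 7.64 and 5.02. The empty-vector line had values of 2.33, 3.24, 2.35, 3.36 and 3.44 with DEX plus CHX, against 2.20, 2.53, 3.84, 2.91 and 3.21 with CHX alone. These 2 groups overlapped, and the highest of the 10 values, 3.84, was from an array without DEX. In bulk tissue, more cells that express a gene and more RNA per cell cannot be told apart.

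The mean relative signal of PRX72 was 9.04 ± 1.64 with DEX plus CHX and 3.96 ± 0.87 with CHX alone in the VND7 line (SD, n = 5 each), a 2.30-fold rise (95% interval 1.79 to 2.96; limma log2 change 1.20 ± 0.18, SE, adjusted p = 0.0007296). It was the 1 of the 4 genes to pass, where 0.453% of the 22746 probe sets passed in this comparison, all of them upwards, and 1.04% with the replicate block. Groups that do not overlap, with DEX the higher, were found for 0.923% of probe sets in this line. Its p-value ranked 35 of all probe sets. The rise was 3.81-fold in replicate 1, 2.20-fold in replicate 2, 2.41-fold in replicate 3, 1.81-fold in replicate 4 and 1.76-fold in replicate 5. Replicate 1 thus had the largest ratio, from the brightest DEX array and the dimmest CHX array, and with any 1 of the 10 arrays of the line left out the adjusted p was between 0.0006724 and 0.003608.

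In the empty-vector line PRX72 averaged 2.94 ± 0.56 with DEX plus CHX and 2.94 ± 0.63 with CHX alone (SD, n = 5 each), a ratio of 1.005 (95% interval 0.780 to 1.29, adjusted p = 1). The interval leaves out the 2.30-fold rise seen in the VND7 line. In this comparison 0 of the 4 genes passed with limma, against 0.281% of all probe sets, and 0.712% with the replicate block. Without the block, 0 of the 4 genes had an unadjusted p under the threshold of 0.05, against 832 of the 22746 probe sets. Replicate 3 stood apart in this line, with a ratio of 0.611, while the other numbers gave 1.06 to 1.28.

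**Figure D1:**
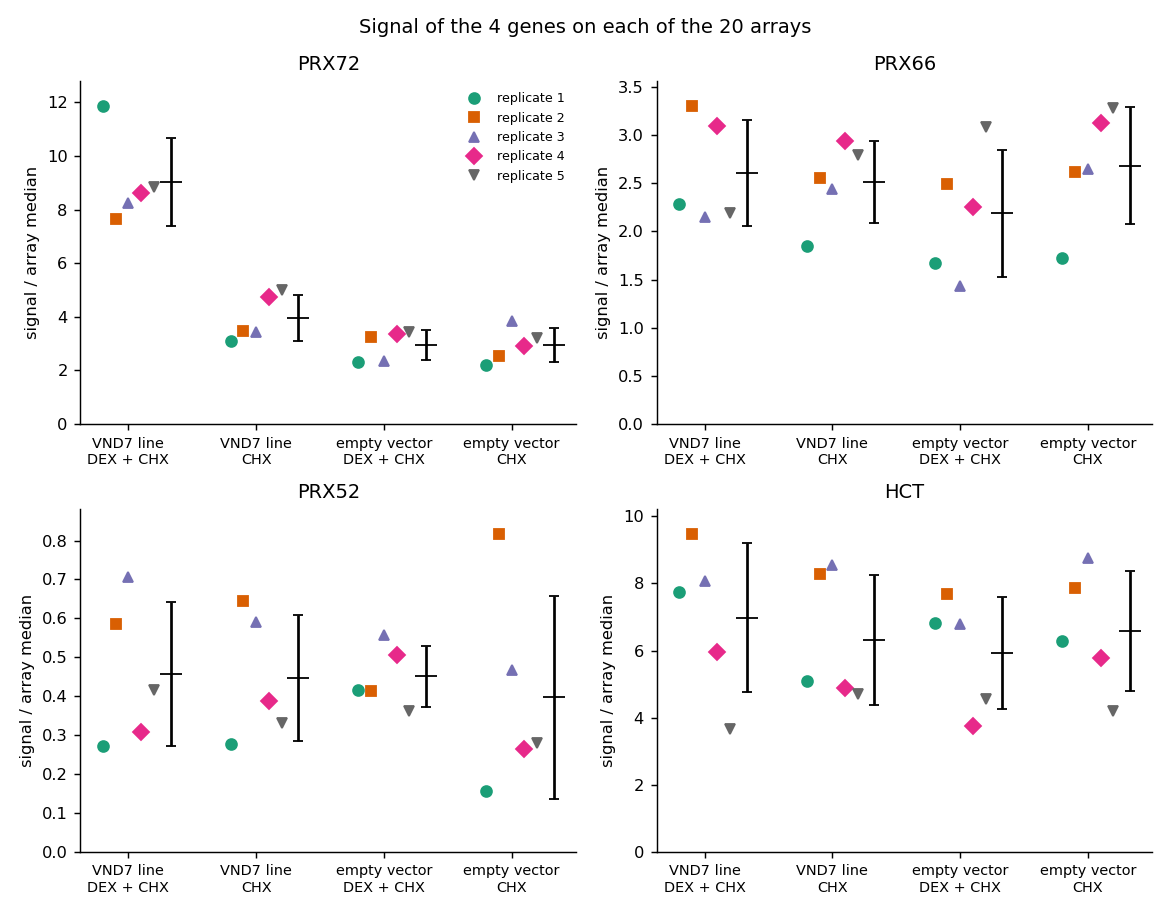
Relative signal (signal divided by the array's median, linear axes from 0) of PRX72, PRX66, PRX52 and HCT in the 4 groups. Each symbol is 1 array, its shape and colour give the replicate number, and the black bar beside each group is the mean with the SD (n = 5). For PRX72 the VND7 line with DEX plus CHX (7.64 to 11.8) stands above all other arrays, while for the other genes the groups overlap.

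Tested as an interaction of line and treatment, the PRX72 responses differed by a log2 value of 1.20 ± 0.25 (2.29-fold, 95% interval 1.60 to 3.28, limma adjusted p = 0.03063, and 0.004806 with the replicate block). The difference was positive in 5 of 5 numbers, from 0.65 to 1.98 on the log2 scale. It was the 1 of the 4 genes to pass, where 0.391% of all probe sets passed in either direction, and 1.05% with the block. Without the block this call was near its threshold. It ended without any 1 of 11 of the 20 arrays (DEX replicates 1, 3 and 4 and CHX replicates 1, 2 and 3 of the VND7 line, and DEX replicates 1 and 3 and CHX replicates 3, 4 and 5 of the empty-vector line; adjusted p = 0.0513 to 0.07247), and without the 4 arrays of any replicate number (0.07431 to 0.3495). With the block it was kept without each number in turn (0.01154 to 0.04471).

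Between the lines, PRX72 was 3.08-fold higher in the VND7 line than in the empty-vector line when both had DEX plus CHX (95% interval 2.39 to 3.97, log2 difference 1.62 ± 0.18, adjusted p = 5.54e-06). This comparison shares its VND7 arrays with the DEX response above. The 5 values of the VND7 line, 7.64 to 11.8, again lay above those of the empty-vector line, 2.33 to 3.44, a separation in this direction shared by 1.29% of probe sets. No other of the 4 genes passed here, where 1.32% of all probe sets did, and 3.24% with the block. With CHX alone the relative signals of PRX72 were 3.11 to 5.02 in the VND7 line and 2.20 to 3.84 in the empty-vector line, and these overlapped. The ratio was 1.35 (95% interval 1.05 to 1.73), above 1 in 4 of 5 numbers, and it did not pass after adjustment (limma adjusted p = 0.9998, and 0.5534 with the block). Here 0 of the 4 genes passed with limma, against 0.0264% of all probe sets, and 0.0923% with the block. Of the 4 genes PRX72 alone had an unadjusted p under 0.05, against 607 of the 22746 probe sets without the block.

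**Figure D2:**
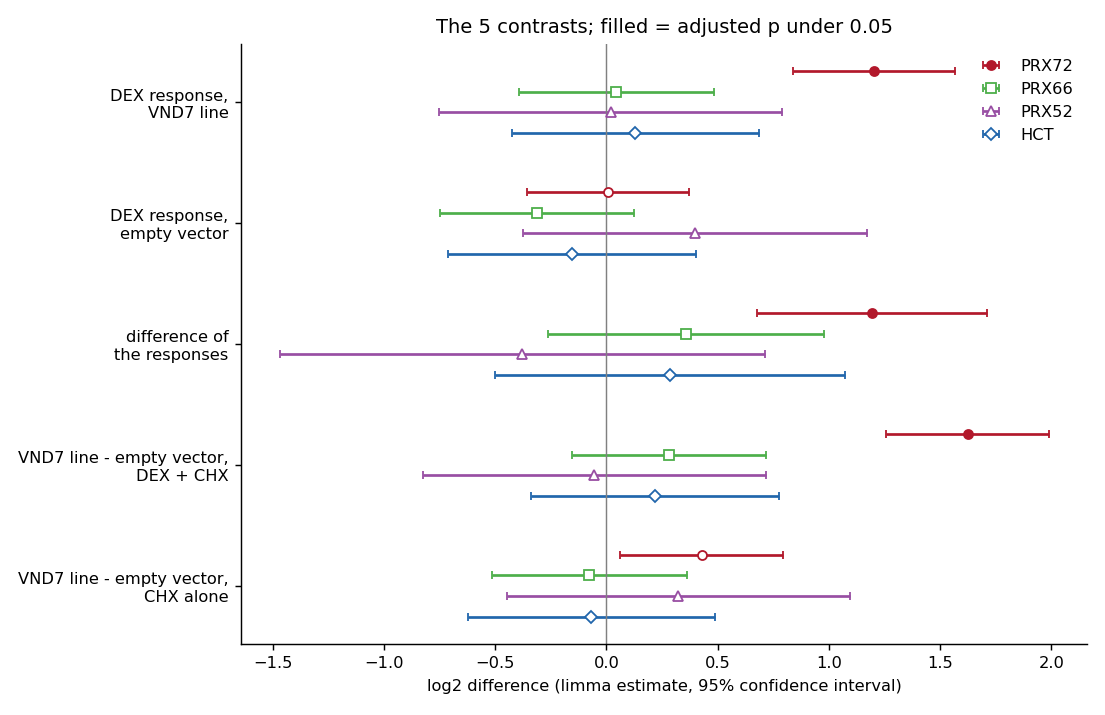
Limma estimates with 95% confidence intervals on the log2 scale for the 4 genes in the 5 contrasts, in which positive values mean higher with DEX or higher in the VND7 line. Filled symbols had an adjusted p under 0.05, which held for PRX72 in 3 contrasts (1.20, 1.20 and 1.62).

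PRX66, a peroxidase related to enzymes of lignifying vessel elements, did not pass in any of the 5 contrasts. In the VND7 line its relative signals in replicates 1 to 5 were 2.29, 3.30, 2.15, 3.10 and 2.19 with DEX plus CHX, against 1.84, 2.55, 2.44, 2.94 and 2.80 with CHX alone. The empty-vector line had 1.67, 2.50, 1.43, 2.25 and 3.09 with DEX plus CHX, against 1.72, 2.62, 2.65, 3.13 and 3.29 with CHX alone. The groups overlapped in both lines. The ratio of DEX plus CHX to CHX was 1.03 in the VND7 line (95% interval 0.762 to 1.40) and 0.805 in the empty-vector line (0.594 to 1.09), each with an adjusted p of 1. In the empty-vector line the log2 changes of PRX66 with DEX in replicates 1 to 5 were -0.04, -0.07, -0.89, -0.47 and -0.09. All were below 0, but those of replicates 1, 2 and 5 were small. The share of all probe sets with lower values in every pair of this line was not counted. With the replicate block the log2 interval of this response was -0.60 to -0.02 (limma unadjusted p = 0.03584). It did not pass after adjustment with the block either (limma adjusted p = 0.5446). The difference between the responses was 0.36 ± 0.30 on the log2 scale (adjusted p = 1). A 2-fold response of PRX66 in the VND7 line lies outside its interval, and the interval includes no change.

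PRX52, a peroxidase linked to lignin of the stem, was measured with the least precision. In the VND7 line it had relative signals of 0.272, 0.586, 0.707, 0.309 and 0.414 with DEX plus CHX, against 0.277, 0.644, 0.590, 0.387 and 0.331 with CHX alone. The empty-vector line had 0.415, 0.414, 0.557, 0.505 and 0.361 with DEX plus CHX, against 0.157, 0.816, 0.468, 0.263 and 0.280 with CHX alone. The lowest and the highest of its 20 values both came from the empty-vector line without DEX, and all groups compared overlapped. The ratio was 1.01 in the VND7 line (95% interval 0.594 to 1.73) and 1.32 in the empty-vector line (0.772 to 2.25), and the difference of responses was -0.38 ± 0.52 (adjusted p = 1 each). The 5 numbers of the empty-vector line gave log2 changes from -0.98 in replicate 2 to 1.41 in replicate 1. The unblocked interval of that line includes a 2-fold rise. With the replicate block its log2 interval was -0.13 to 0.92, which leaves out a 2-fold rise and includes no change (limma adjusted p = 0.7373). The blocked interval in the VND7 line was -0.50 to 0.54. In the VND7 line the 5 log2 changes lay between -0.33 and 0.32.

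HCT, the transferase that makes the shikimate ester from which the later monolignol steps proceed, did not pass in any of the 5 contrasts. In the VND7 line its relative signals were 7.74, 9.47, 8.07, 5.96 and 3.67 with DEX plus CHX, against 5.09, 8.28, 8.55, 4.89 and 4.70 with CHX alone. In the empty-vector line they were 6.82, 7.68, 6.80, 3.75 and 4.57 with DEX plus CHX, against 6.29, 7.88, 8.75, 5.77 and 4.19 with CHX alone. The same order returned in every group: replicates 2 and 3 were above replicates 4 and 5. The ratio of DEX plus CHX to CHX was 1.09 in the VND7 line (95% interval 0.744 to 1.61, log2 change 0.13 ± 0.27) and 0.898 in the empty-vector line (0.611 to 1.32), with an adjusted p of 1 in each. With the replicate block the standard error in the VND7 line was 0.12 in place of 0.27, the log2 interval was -0.12 to 0.38, and the adjusted p was 0.8875. HCT was higher with DEX in 3 of 5 numbers in the VND7 line and in 2 of 5 in the empty-vector line.

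**Figure D3:**
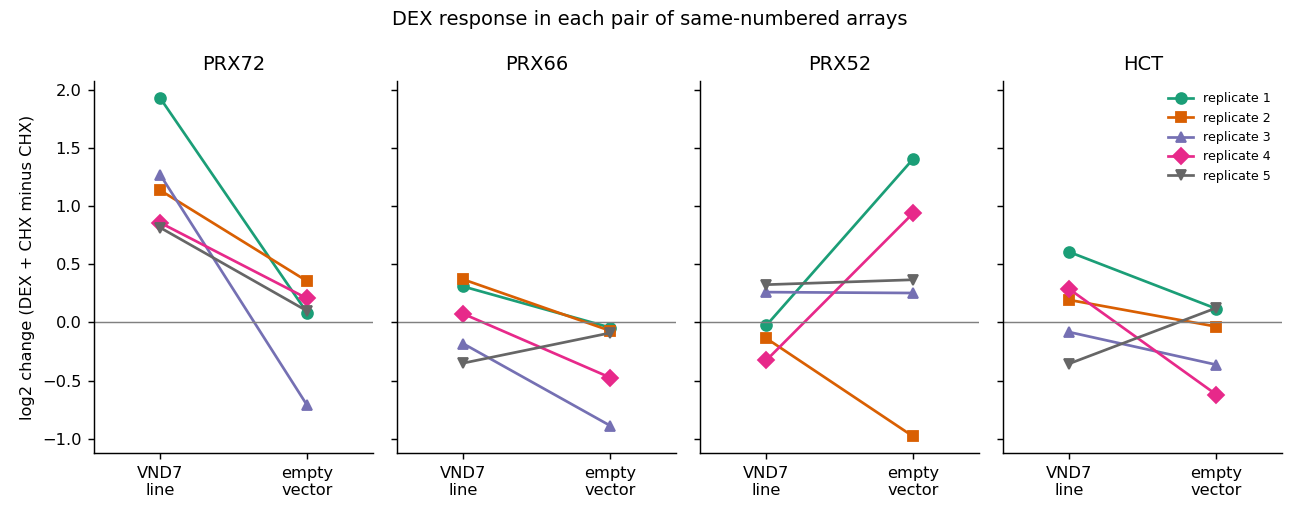
Log2 change between the DEX plus CHX and the CHX array of the same replicate number, in the VND7 line (left in each panel) and the empty-vector line (right), with a line joining the changes of 1 number. PRX72 lies between 0.82 and 1.93 in the VND7 line in all 5 numbers and between -0.71 and 0.36 in the empty-vector line, while PRX66, PRX52 and HCT have changes on both sides of 0 in the VND7 line.

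The 4 genes differed in where their spread over the 20 arrays lay. For PRX72 the line accounted for 51.6% of the sum of squares of log2 values, the DEX treatment for 17.9% and their interaction for 17.5%. The replicate number accounted for 3.37% and the rest for 9.61%. The line share compares the lines over both treatments, and so includes the high values of the VND7 line with DEX. Mean log2 relative signals with DEX plus CHX and with CHX alone were 3.16 and 1.96 in the VND7 line. In the empty-vector line they were 1.54 and 1.53. For HCT the replicate number accounted for 80.4%, for PRX52 for 64.0% and for PRX66 for 54.0%. The largest single share of line, treatment or interaction among these 3 genes was 7.09%, for the interaction of PRX66. The medians over probe sets above the array median were 1.97% for the line, 1.58% for the treatment, 1.19% for the interaction and 60.6% for the replicate number.

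The replicate numbers differed for HCT (limma F test, adjusted p = 1.503e-05), PRX52 (0.005219) and PRX66 (0.00658), and did not pass for PRX72 (0.3563). That 3 of the 4 genes passed is to be read against 44.5% of all probe sets. Over the 4 groups HCT averaged 6.48 ± 1.11, 8.33 ± 0.80, 8.04 ± 0.87, 5.09 ± 1.01 and 4.28 ± 0.46 in replicates 1 to 5 (SD, n = 4 arrays), a 1.95-fold range between replicate 2 and replicate 5. PRX52 averaged 0.280 ± 0.106, 0.615 ± 0.166, 0.580 ± 0.099, 0.366 ± 0.106 and 0.346 ± 0.056, so that replicates 2 and 3 were again the highest and replicate 1 was the lowest. PRX66 averaged 1.88 ± 0.28, 2.74 ± 0.37, 2.17 ± 0.53, 2.86 ± 0.41 and 2.84 ± 0.48, with another order, in which replicates 1 and 3 were the lowest. The labels do not say what the numbers share, such as a day of growth or of extraction. The SD of log2 values within groups was 0.29 for PRX72, 0.35 for PRX66, 0.61 for PRX52 and 0.46 for HCT, and within groups and numbers it was 0.29, 0.25, 0.39 and 0.21.

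**Figure D4:**
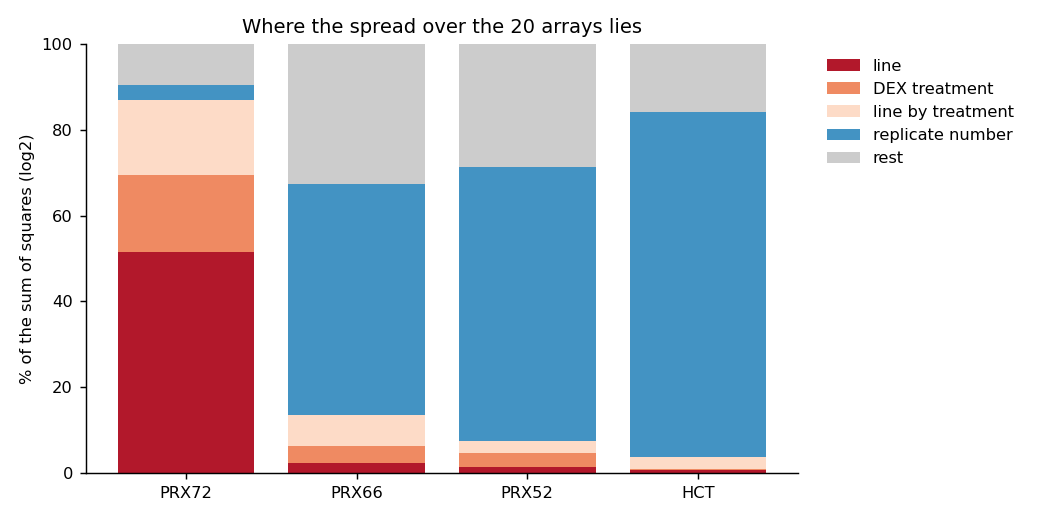
Share of the sum of squares of log2 values over the 20 arrays, in percent, that lies between the lines, between the DEX treatments, in their interaction, between replicate numbers and in the rest, as stacked bars for each gene. For PRX72 the line, compared over both treatments, is the largest part (51.6%). For PRX66, PRX52 and HCT it is the replicate number (54.0%, 64.0% and 80.4%).

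The 3 peroxidases and HCT shared little of their pattern over the 20 arrays, which all carry the same groups and replicate numbers. The highest Pearson r between any pair was 0.416, for PRX52 and HCT, and PRX72 had r of 0.325 with PRX66, 0.047 with PRX52 and 0.028 with HCT. After the mean of each replicate number was taken off, PRX66 and HCT had an r of 0.736, and PRX52 and HCT had -0.267. For PRX72 most of the spread lay between groups, so a high r with it can come from those differences alone. Likeness was also measured against 5941 named probe sets above the median probe set. Those most like PRX72 over the 20 arrays were TBL34, of a family of wall polysaccharide acetylation (r = 0.940), AT1G23460 (0.929) and AT5G61340 (0.925), and with the number means off scpl48 (0.972), AT3G27200 (0.968) and HMT-1 (0.966).

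For HCT they were AT1G51200 (0.935), AT3G48460 (0.924) and AT4G23670 (0.920), and with the number means off the tubulin gene TUA6 (0.868), AT5G48480 (0.824) and IQD31 (0.817). The 3 most like PRX66 were AT2G25950 (0.888), AT2G25280 (0.860) and AT1G48210 (0.854), and for PRX52 they were AT5G55560 (0.891), AT3G55470 (0.884) and AT5G52070 (0.879). With the number means off they were AT3G44590 (0.856), AT3G62450 (0.829) and AT1G28395 (0.812) for PRX66 and AT2G25430 (0.829), AT5G28040 (0.823) and AT1G78800 (0.804) for PRX52. No gene appeared in more than 1 of these lists of 3. Among the 5941, the 100th highest r over the 20 arrays was 0.608 for PRX72, 0.687 for PRX66, 0.7895 for PRX52 and 0.824 for HCT. With the number means off the 100th was 0.777, 0.644, 0.639 and 0.622 in the same order. The r of 0.736 between PRX66 and HCT, also with the number means off, lay above the 100th for both genes.

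Among class III peroxidases as a whole, 55 of the 73 genes had a matched probe set, the 3 described above included. In the VND7 line PRX72 was the 1 of the 55 that rose, where 0.453% of all probe sets passed, and it had the largest log2 change of the 55. None of the 55 fell, and 0 of all 22746 probe sets fell in this comparison (limma, 782 with an unadjusted p under 0.05 in either direction). Their median log2 change was -0.08, where that of all probe sets was -0.02. With the replicate block, under which 1.04% of all probe sets passed, 2 others fell in this line, AT1G14550 by 0.59 and AT5G64100 by 0.49 on the log2 scale (adjusted p = 0.0004074 and 0.02401). In the empty-vector line 3 of the 55 rose, where 0.281% of all probe sets passed, all of them upwards, and the median was -0.02. With the block 4 rose, where 0.712% passed, the addition being AT4G30170 (0.59 on the log2 scale, adjusted p = 0.001257). The test of the difference was passed upwards by PRX72 and downwards by those 3 genes, AT3G01190, AT5G17820 and AT5G64100, where 0.391% of all probe sets passed. With the block, where 1.05% passed, AT1G14550 also passed downwards (-0.53, adjusted p = 0.03789).

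AT3G01190 had relative signals of 19.8, 20.04, 19.7, 33.0 and 32.6 with DEX plus CHX in the empty-vector line, against 4.70, 4.36, 6.43, 7.95 and 7.46 with CHX alone (4.04-fold, adjusted p = 2.379e-05). In the VND7 line it had 4.43 to 7.77 with DEX plus CHX, against 5.19 to 8.58 with CHX alone. Its lines thus differed in the direction opposite to that of PRX72, with a difference of responses of -2.22 ± 0.30 (adjusted p = 0.0005381). AT5G17820 rose 2.69-fold and AT5G64100 2.39-fold with DEX in the empty-vector line (adjusted p = 0.0007918 and 0.002056), with differences of responses of -1.64 ± 0.29 and -1.75 ± 0.28 (0.006476 and 0.002862). With DEX plus CHX these 3 were lower in the VND7 line than in the empty-vector line and PRX72 was higher, where 1.32% of all probe sets passed. With the block, where 3.24% passed, AT2G43480 (2.15-fold, adjusted p = 0.009703) and AT4G36430 (1.59-fold, 0.002384) were also higher in the VND7 line, and AT1G14550 and AT4G30170 were also lower, by a log2 difference of -0.53 and -0.51 (0.0005513 and 0.001689).

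**Figure D5:**
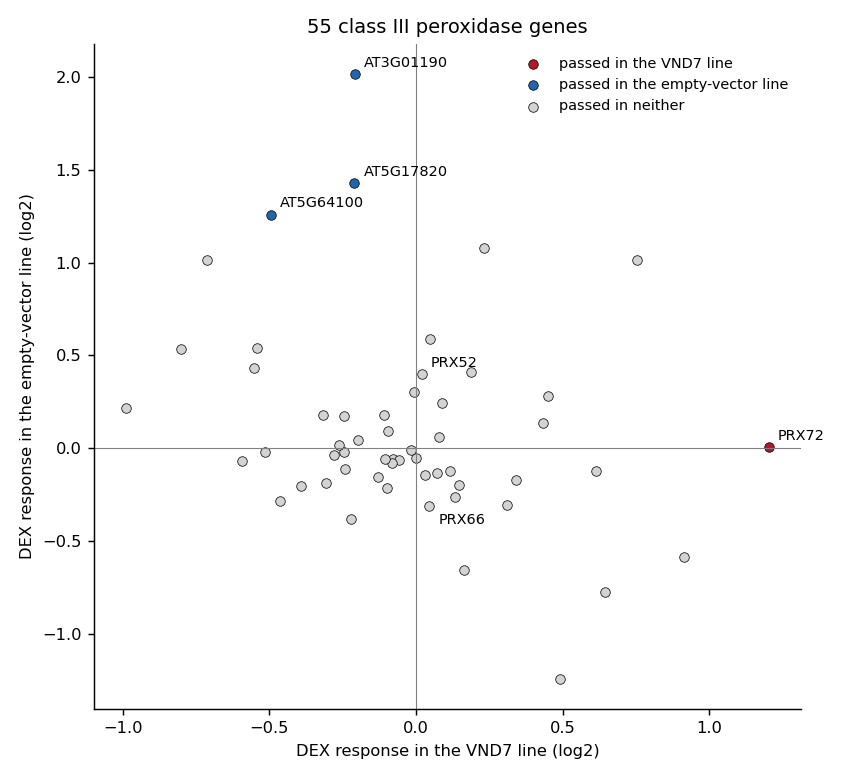
Log2 change with DEX in the VND7 line (horizontal) against that in the empty-vector line (vertical) for the 55 class III peroxidase genes with a matched probe set, 1 point per gene. PRX72 lies far right at 1.20 and near 0 on the vertical axis, 3 genes that rose in the empty-vector line lie high at 1.26 to 2.02, and PRX66 and PRX52 lie among the genes that passed in neither line.

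Other genes of the route could be matched to a probe set only in part, and 0 of those matched passed in any of the 5 contrasts. Genes without a match in the gene table are not analysed here. Of 19 monolignol synthesis genes 2 were matched, HCT and CCR2, a cinnamoyl-CoA reductase, which had log2 changes of -0.04 ± 0.20 with DEX in the VND7 line and 0.01 ± 0.20 in the empty-vector line. Of 17 laccases, which oxidise monolignols with oxygen, LAC16 was matched (-0.18 ± 0.81 and -0.20 ± 0.81). Of 6 flavonoid genes, whose pathway starts from the same precursors, DFR was matched (0.04 ± 0.91 and -0.24 ± 0.91). Among HCT and 5 related acyltransferases 5 were matched: FACT had 0.10 ± 0.13 and 0.16 ± 0.13, SDT 0.18 ± 0.82 and 0.41 ± 0.82, SHT -0.74 ± 0.85 and 0.73 ± 0.85, and AT5G57840 1.64 ± 0.59 and -0.53 ± 0.59 (limma adjusted p = 0.7435 in the VND7 line). Between the lines AT5G57840 had a log2 difference of 0.09 ± 0.59 with DEX plus CHX and of -2.07 ± 0.59 with CHX alone, where the VND7 line had the lower values (adjusted p = 0.9999 and 0.9998). Of 11 lignin and secondary wall regulators and 9 oxidase and Casparian strip genes 0 had a matched probe set, so these values do not show whether the route as a whole responded.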

How the data were processed

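One-colour Affymetrix arrays of 20 seedling samples were used. Per the submitters' processing notes, the authors computed signals with MAS5 (version not given in the sources used here). The deposited values are natural logs of the signal divided by the array's median. This was worked out from the values: the column medians lie between 0 and 0.000304, and after exponentiation 100% of the values checked were whole multiples of 1 step per array (tolerance 0.02 of a step, values up to 3000 steps), taken as 0.1 of a MAS5 signal. The values were turned into log2 for tests, with no pseudocount. Precision is limited by having 5 arrays in each group. Detection calls were not used here.

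Probe sets were matched through the array's gene table and RefSeq (TAIR10.1, names only): 13436 of 22746 had 1 matched gene. PRX66 is a name from outside that table. A list gene with more than 1 probe set was represented by its brightest. Genome coordinates and sequences are not used here. The labels do not tie replicates to separate cultures. The p-values therefore reflect sample-to-sample spread alone, part of which may be technical.

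Limma 3.58.1 in R 4.3.3 (lmFit, eBayes with a variance trend) was fitted to all probe sets with 4 group means over 20 arrays, with Benjamini-Hochberg adjustment over all probe sets and a threshold of 0.05. All adjusted p-values are from these fits or, where said, from the fit with the replicate number as a block. Replicate numbers were taken to pair arrays because deviations from group means correlated in 30 of 30 same-numbered pairs. Their r was 0.558 to 0.835 (median 0.746) over 11367 probe sets above the array median. For 120 pairs with different numbers the median r was -0.296. Of these, 24 had r over 0.1 and the highest was 0.779, so some differently numbered arrays also deviated together. The F test compared replicate numbers in the additive model. The fit was tested on simulated data with independent noise on each array and no shared effect of the replicate number. That simulation does not show how the fit behaves with such an effect.

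The genes, lists and tests were chosen with earlier results of these data known. Named genes were the 4 members, list genes that passed in any contrast or else up to 4 of a list by smallest p, and the 3 probe sets most like each member. Genes that passed with the block alone were chosen after their values were seen. Alternatives were quantile normalization, a pseudocount at the 30th percentile of signals, leaving out the dimmest 40% of probe sets, no variance trend, the 10 arrays of a comparison alone, and leaving out each array. Chosen after seeing the data were leaving out each replicate number and keeping the MAS5 scaling.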

Additional observations from a re-analysis of the deposited data

Results flagged for a closer look

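PRX72 drew attention because its DEX response differed between the VND7 line and the empty-vector line by the test of the difference itself, by 1.20 on the log2 scale (limma adjusted p = 0.03063, 5 of 5 replicate numbers in that direction). In the 16 combinations of gene and group, 0 had a sample whose gap to the nearest other exceeded 0.71 of the group's range, where chance gives about 1 in 20.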

How the results depend on the processing

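The PRX72 rise in the VND7 line and its difference between the lines with DEX plus CHX kept their calls under every alternative run. Among the 24 results for the 4 genes, the PRX72 difference of responses was the 1 whose call changed. It missed the threshold with quantile normalization (1.21, limma adjusted p = 0.05006), without a variance trend (1.20, 0.06394) and with MAS5 scaling kept (1.21, 0.05244, chosen after seeing the data), and passed with the replicate block (1.20, 0.004806). With arrays or replicate numbers left out it was 1.00 to 1.33, and its call ended in the cases given above. The cause was not tested. The paired analysis with the replicate block changed no call of the 4 genes, and moved the probe sets called to 236 in the VND7 response (103 without it), 162 in the empty-vector response (64), 239 in the difference (89), 737 between lines with DEX plus CHX (300) and 21 with CHX alone (6).

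With arrays or numbers left out, blocked fits included, those counts were 57 to 203, 38 to 135, 34 to 189, 195 to 626 and 5 to 17. Uncalled log2 values changed sign: -0.063 to 0.143 for PRX66 and -0.161 to 0.184 for PRX52 in the VND7 response, -0.0912 to 0.186 for PRX72 in the empty-vector response, -0.236 to 0.109 for PRX52 between lines with DEX plus CHX, and -0.227 to 0.0305 for PRX66 and -0.219 to 0.0468 for HCT with CHX alone. PRX52 was among the dimmest 40% and has no value under that filter. Its low signal, and 5 arrays a group, limit what can be said of small changes.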
